A study of Mus musculus with 53 samples.

Results

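The monoamine and acetylcholine receptors are the proteins through which serotonin, dopamine, noradrenaline, adrenaline, histamine and acetylcholine act on cells. Their genes were taken by name: the protein-coding genes of GENCODE M21 called Htr (serotonin), Drd (dopamine), Chrn (nicotinic acetylcholine), Chrm (muscarinic acetylcholine), Adra or Adrb (adrenergic) and Hrh (histamine). The rule found 53 of the 20214 protein-coding genes listed, of which 14 were serotonin, 5 dopamine, 16 nicotinic, 5 muscarinic, 9 adrenergic and 4 histamine receptor genes. All 53 had a value, and none was removed by a filter. The series, 53 samples in 19 groups, asked how histone turnover bears on transcription in neurons. The values used here came from 1 of those groups: cortical tissue of C57bl/6 mouse embryos (E16.5), labelled as control without stimulation, with no allele or transgene named, sequenced as 3 total RNA libraries. The labels do not say whether each library came from 1 embryo or from a pool. With 1 group there was no condition to compare, and no p-value is given.

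Most of these receptors are single proteins that cross the membrane and signal through a G protein. Receptors coupled to Gs raise cyclic AMP, those coupled to Gi lower it, and those coupled to Gq act through phospholipase C. The nicotinic receptors and the serotonin receptor type built on Htr3a are ion channels assembled from several subunits. In the embryonic cortex their ligands arrive mainly with axons that grow in from the brainstem and basal forebrain. Serotonin and acetylcholine are known there to affect progenitor division, neuronal migration and early network activity before most synapses have formed.

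Each deposited value is the authors' mean of 3 libraries in RPKM, reads per kilobase of gene and M reads of the library. The last digits of that mean allowed the 3 libraries to be separated. Their totals were 71.6, 64.8 and 51.3 M reads (188 M in all), and a gene's mean equals whole reads in each library divided by its length and these totals. Whole reads were recovered for all 50 receptor genes above 0, 33 of them at an annotated length and 17 at the shortest length near one. The length was that of the whole gene, introns included, in 56.5% of the 7949 protein-coding genes searched at that length, and the exon length in 0 of 7443. A gene with long introns therefore reads low on the deposited scale. A 2nd scale is given beside it, in RPM (reads per M reads of the library) per kilobase of exon, and assumes that the counted reads lie in exons. Libraries are named by depth, since the mean does not say which label each one belongs to. Intervals are exact Poisson intervals (95%) on the summed reads and cover counting error only.

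The DNA before the start is shown for genes at both ends of the range of levels. RefSeq (GRCm38.p6) lists a start window for 40 of the 53 genes. The 250 bases before the most upstream start are shown for the 3 highest and the 3 lowest above 0 of these 40 genes on the exon scale. Each runs 5′ to 3′ toward the gene, with CG dinucleotides, the sites of DNA methylation, in capitals. The windows lie at chr3:89764633-89764882 (minus strand) for Chrnb2, chr7:63212527-63212776 (minus) for Chrna7, chr13:54055659-54055908 (minus) for Drd1, chr2:127362929-127363178 (plus) for Adra2b, chr1:87205561-87205810 (plus) for Chrng and chr5:65966874-65967123 (plus) for Chrna9.
Chrnb2: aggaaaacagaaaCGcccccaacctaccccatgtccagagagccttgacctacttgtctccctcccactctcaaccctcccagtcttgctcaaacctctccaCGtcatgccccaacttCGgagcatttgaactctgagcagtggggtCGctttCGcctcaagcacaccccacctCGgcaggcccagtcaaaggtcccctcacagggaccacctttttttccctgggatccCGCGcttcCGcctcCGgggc
Chrna7: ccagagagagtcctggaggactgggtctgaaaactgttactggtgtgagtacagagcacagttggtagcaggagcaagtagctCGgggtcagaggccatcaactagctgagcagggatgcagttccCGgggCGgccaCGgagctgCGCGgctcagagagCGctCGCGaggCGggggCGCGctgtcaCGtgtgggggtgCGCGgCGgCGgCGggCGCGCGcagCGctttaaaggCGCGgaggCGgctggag
Drd1: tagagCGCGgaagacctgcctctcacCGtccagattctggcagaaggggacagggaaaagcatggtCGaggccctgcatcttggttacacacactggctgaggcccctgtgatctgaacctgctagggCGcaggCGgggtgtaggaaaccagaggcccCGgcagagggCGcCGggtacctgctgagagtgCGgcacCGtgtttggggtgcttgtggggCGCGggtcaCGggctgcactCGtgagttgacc
Adra2b: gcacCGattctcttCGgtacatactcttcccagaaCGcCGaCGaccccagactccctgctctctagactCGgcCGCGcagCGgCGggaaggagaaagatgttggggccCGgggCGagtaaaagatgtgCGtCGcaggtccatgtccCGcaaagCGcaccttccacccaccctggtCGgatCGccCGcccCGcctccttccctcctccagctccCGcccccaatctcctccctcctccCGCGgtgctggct
Chrng: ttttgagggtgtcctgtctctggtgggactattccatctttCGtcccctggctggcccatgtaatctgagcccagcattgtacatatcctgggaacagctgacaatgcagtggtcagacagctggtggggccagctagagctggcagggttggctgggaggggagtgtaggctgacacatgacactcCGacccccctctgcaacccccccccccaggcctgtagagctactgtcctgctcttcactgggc
Chrna9: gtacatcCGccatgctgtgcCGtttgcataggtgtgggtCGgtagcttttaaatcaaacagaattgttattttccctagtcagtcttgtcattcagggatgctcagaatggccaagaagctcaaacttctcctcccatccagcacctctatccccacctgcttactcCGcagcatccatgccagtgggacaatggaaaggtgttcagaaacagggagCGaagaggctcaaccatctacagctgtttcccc

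The high genes held 10 (Chrnb2), 25 (Chrna7) and 15 (Drd1) CG dinucleotides. Of the low genes, Chrng held 2 and Chrna9 held 5, while Adra2b held 23. Over the 40 receptor genes the median was 10 CG dinucleotides, and 52.5% held 10 or more, against a median of 11 and 54.6% of the 15585 protein-coding genes with a window. Of the 20 receptor genes with the higher levels (0.302 to 16.3 per kilobase of exon), 14 held 10 or more. Of the 20 with the lower levels (0.00385 to 0.277), 7 did. Drd5 (35 CG dinucleotides, 0.0157 per kilobase of exon) and Htr7 (41, 0.277) were rich in CG and low in level. These counts are a description of the windows, with no methylation measured.

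**Figure D1:**
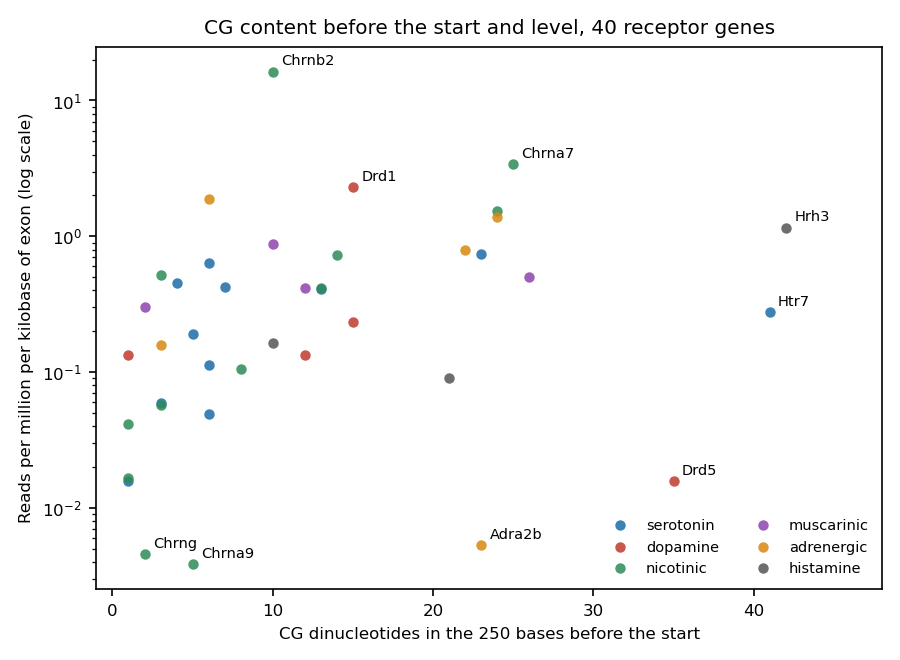
CG dinucleotides in the 250 bases before the start (horizontal axis) against the level per kilobase of exon (vertical, log scale) of the 40 receptor genes with a RefSeq window, 1 point a gene, coloured by family. Genes with 20 or more CG dinucleotides run from Chrna7 at 3.41 to Adra2b at 0.00534.

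As a set, the receptor genes were low. Chrnb2, Adra2c, Drd1 and Adrb1 reached 1 RPKM, 4 of 53 (7.55%), against 31.6% of all protein-coding genes. Chrnd, Chrnb3 and Hrh4 were listed at 0, 3 of 53 (5.66%), against 15.2% of all protein-coding genes. The median receptor gene stood at 0.0163 RPKM, against 0.214 RPKM over all protein-coding genes. Per kilobase of exon, 9 of 53 (17.0%) reached 1, against 54.1% of all protein-coding genes, and the medians were 0.159 for the receptor genes and 1.57 for all. The receptor genes held 34364 reads in all, and Chrnb2 alone held 48.3% of them. In a bulk sample, few cells with much RNA and many cells with little cannot be told apart.

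**Figure D2:**
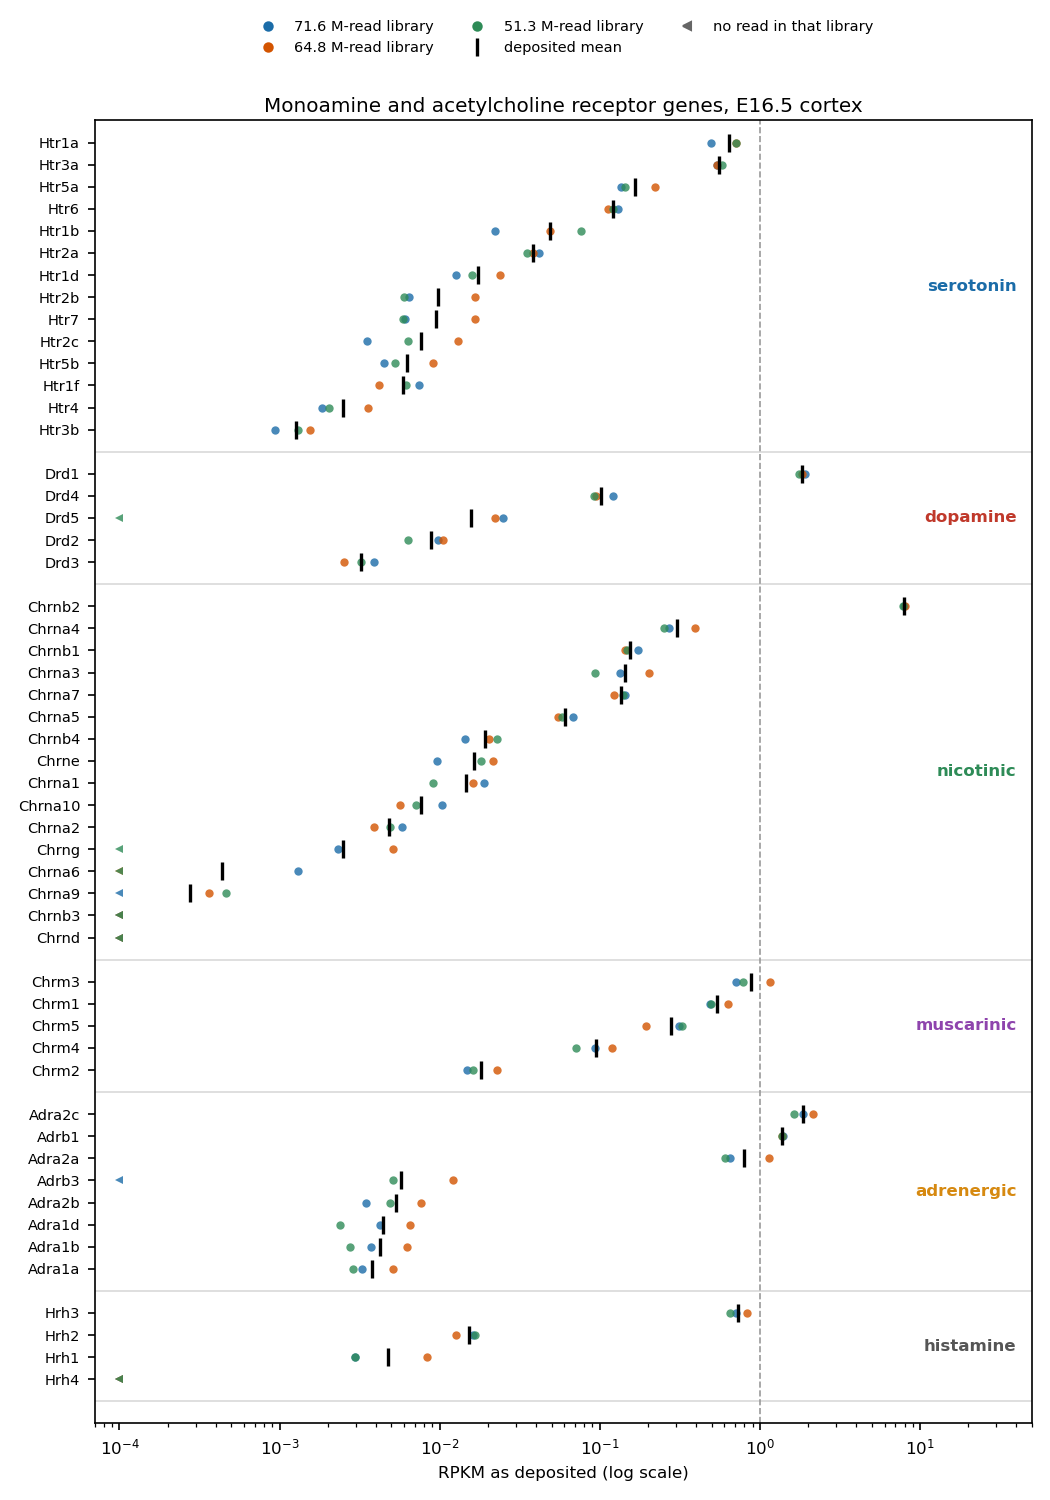
RPKM (log scale) of 52 of the 53 receptor genes by family, 1 coloured point for each library, a black bar for the deposited mean and a triangle at the left edge for a library with no read. The dashed line marks 1 RPKM. The libraries lie nearly on each other for Chrnb2 and Adrb1 and spread apart for Htr2c, Hrh1 and Htr7.

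The order of the genes was firm at the top and loose below. Of the 49 pairs of neighbours above 0 in that order, 43 had overlapping intervals. Chrnb2 stood apart from Adra2c, Drd1 from Adrb1 and Adrb1 from Chrm3, while Adra2c and Drd1 overlapped. From Chrnb4 (0.0193 RPKM) down, every gene overlapped its neighbour. The length scale changed the order: Chrna7, at place 16 by RPKM, was at place 2 per kilobase of exon, and Htr3a moved to place 3 there against place 9 by RPKM.

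**Figure D3:**
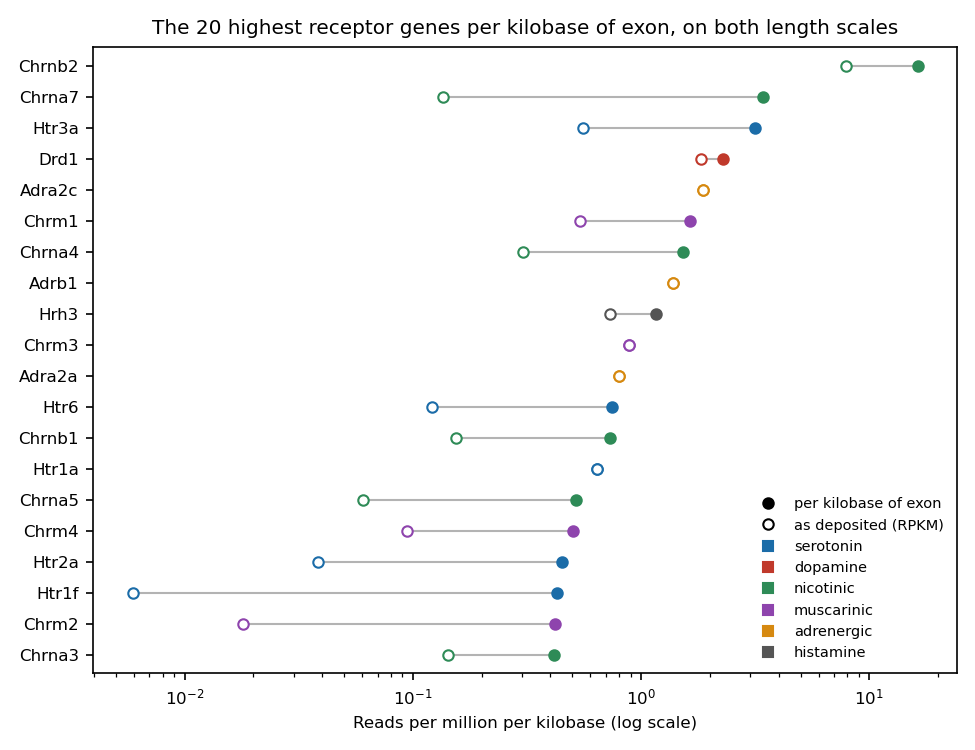
Level of the 20 highest receptor genes per kilobase of exon (filled) and as deposited in RPKM (open), log scale, coloured by family. An open circle alone means that both scales coincide, as for Adra2c, whose length was found only near an annotated one, while Chrna7 (3.41 and 0.135) and Htr1f (0.426 and 0.00591) lie far apart.

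Of the ion channel subunits, the nicotinic gene Chrnb2 was the highest receptor gene. Its protein is the beta subunit that joins the product of Chrna4 in the main high-affinity nicotinic receptor of the brain. Chrnb2 had 7.89, 8.03 and 7.80 RPKM in the 71.6, 64.8 and 51.3 M libraries, from 6316, 5818 and 4477 reads. The libraries differed by a factor of 1.03, and the mean was 7.91 RPKM (interval 7.79 to 8.03) or 16.3 per kilobase of exon. Over all its M21 exons Chrnb2 shares 1365 bases with Adar on the other strand, an RNA editing gene at 3.47 RPKM, but 0 of the 5420 exon bases inside the interval whose length gave whole reads. Where exons of other receptor genes overlap a gene on the other strand, reads of the pair cannot be told apart, since the sources used here do not say whether counting used the strand.

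Chrna4 had 0.270, 0.395 and 0.250 RPKM in the 3 libraries, with the 64.8 M library 1.58 times the lowest. Chrna7, whose protein forms a channel of its own with high calcium permeability, had 0.143, 0.122 and 0.139 RPKM. By RPKM Chrna4 was 2.26 times Chrna7 (2.12 to 2.41), but per kilobase of exon it was 0.448 times Chrna7 (0.421 to 0.478), so the pair has no order that holds on both scales. Chrna7 rested on 2886 reads over a gene of 113877 bases.

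Chrna5, Chrna3 and Chrnb4 are neighbours in 1 gene cluster and make the receptors of autonomic ganglia, with Chrna5 as an accessory subunit. Chrna3 had 0.134, 0.203 and 0.0935 RPKM, and its 64.8 M library was 2.17 times the lowest. Chrna5 averaged 0.0602 RPKM and Chrnb4 0.0193 RPKM. Chrnb2 was 411 times Chrnb4 by RPKM (326 to 525) and 155 times per kilobase of exon. Chrna5 was 0.419 times Chrna3 by RPKM but 1.25 times per kilobase of exon, again without 1 order.

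The other subunits were at the limit of detection. Chrna2 had 5, 3 and 3 reads. Chrna6, known in the mouse from dopamine neurons with Chrnb3, had 1, 0 and 0 reads, and Chrnb3 none. Chrna9 and Chrna10 form the receptor of inner ear hair cells, and had 0, 1 and 1 reads and 4, 2 and 2 reads. Of the 2513 exon bases used for Chrna10, 1025 (40.8%) are shared with Art1 on the other strand (0.00891 RPKM).

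The 5 muscle subunit genes did not behave as 1 group. Chrnb1, the muscle beta subunit, had 0.172, 0.144 and 0.147 RPKM, the 3rd highest nicotinic gene by RPKM at 0.155 from 348 reads. Its interval (0.139 to 0.172) overlapped those of Chrna3 (0.130 to 0.158) and Chrna7 (0.130 to 0.140). Per kilobase of exon it stood at 0.727, below Chrna7 at 3.41. Chrna1, the ligand-binding muscle subunit, had 23, 18 and 8 reads. Chrne, the adult subunit, had 3, 6 and 4 reads, and Chrng, the fetal subunit it replaces at the muscle synapse, had 1, 2 and 0. Chrng was 0.152 times Chrne by RPKM (0.0277 to 0.552), 0.0838 times without the 64.8 M library and 0.240 times without the 51.3 M library. Chrnd was listed at 0, where 3 reads would have been 0.00169 RPKM. The muscle markers Myh3, Actc1, Myog, Myod1, Tnnt1 and Musk were all under 0.1 RPKM, from 0.000122 (Musk) to 0.0210 (Tnnt1), and summed to 0.670, 0.802 and 0.370 RPM in the 3 libraries.

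Htr3a, the subunit every serotonin-gated channel needs and a known marker of interneurons from the caudal ganglionic eminence, had 0.541, 0.543 and 0.577 RPKM. All 3 libraries lay within a factor of 1.07. Its mean was 0.554 RPKM (0.523 to 0.585), or 3.16 per kilobase of exon, the highest of the serotonin family on that scale. Htr3b, which needs Htr3a to form a channel, had 2, 3 and 2 reads. Htr3a was 439.8 times Htr3b by RPKM (213 to 1096) and 202 times per kilobase of exon.

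Of the serotonin receptors that couple to Gi, Htr1a was the highest by RPKM. Htr1a, which dampens the firing of neurons, had 0.494, 0.712 and 0.707 RPKM, with the 71.6 M library the low one. Htr5a had 0.136, 0.220 and 0.144 RPKM. Htr1b and Htr1d, which act on axon terminals, averaged 0.0490 and 0.0174 RPKM, from 11 and 68 reads. Htr1b was 2.82 times Htr1d by RPKM but 0.431 times per kilobase of exon. Without the 51.3 M library the RPKM ratio was 1.94. Of the 1273 exon bases used for Htr1b, 852 (66.9%) are shared with an antisense gene. Htr1f had 0.00741, 0.00418 and 0.00614 RPKM over a gene of 181055 bases, and 0.426 per kilobase of exon. Htr5b had 6, 11 and 5 reads.

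Among the Gs-coupled serotonin receptors, Htr6 had 0.129, 0.113 and 0.120 RPKM. Its protein sits in the primary cilium of neurons. Htr7 had 0.00608, 0.0166 and 0.00592 RPKM, so the 64.8 M library stood well above the other two. Htr6 was 12.7 times Htr7 by RPKM and 2.70 times per kilobase of exon, and 20.8 times by RPKM without the 64.8 M library. Htr4 averaged 0.00248 RPKM from 67 reads.

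Among the Gq-coupled serotonin receptors, Htr2a had 0.0419, 0.0381 and 0.0351 RPKM. Htr2a is the receptor on which hallucinogens act. Htr2c, whose RNA is edited and which is known for its high level in the choroid plexus, had 0.00351, 0.0131 and 0.00631 RPKM. Htr2c was 0.199 times Htr2a by RPKM (0.172 to 0.229) and 0.425 times per kilobase of exon, and 0.127 times by RPKM without the 64.8 M library. Htr2b had 6, 14 and 4 reads, and 11.8% of the exon bases used for it are shared with the proteasome gene Psmd1 on the other strand (1.32 RPKM).

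The dopamine receptors were led by Drd1. Drd1, the Gs-coupled receptor of the striatum's direct pathway and of prefrontal cortex, had 1.92, 1.82 and 1.76 RPKM, all 3 libraries within a factor of 1.09. Its mean was 1.83 RPKM (1.74 to 1.93). Drd5, the other Gs-coupled member, had 5, 4 and 0 reads, and 48.6% of all its M21 exon bases are shared with an antisense gene. Drd1 was 117 times Drd5 by RPKM (61.5 to 256), and 79.6 times without the 51.3 M library.

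Of the Gi-coupled dopamine receptors, Drd4 had 0.120, 0.0940 and 0.0923 RPKM. Drd2, the receptor of the striatum's indirect pathway, had 0.00972, 0.0105 and 0.00635 RPKM. Drd1 was 207 times Drd2 by RPKM (171 to 252) and 9.75 times per kilobase of exon, so the direction held while the size depended on the length. Drd2 was 0.0868 times Drd4 by RPKM and 1.76 times per kilobase of exon. Drd3 averaged 0.00322 RPKM from 37 reads. Of the markers of striatal neurons, Ppp1r1b stood at 2.41 RPKM, Foxp1 at 0.106, Isl1 at 0.0152, Ebf1 at 0.00779 and Rarb at 0.00425. The sums of these 5 were 92.9, 88.9 and 90.6 RPM in the 3 libraries. Their part in the level of Drd1 was not tested.

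All 5 muscarinic genes had reads in every library, and the family had the highest median of the 6 families on both scales, 0.277 RPKM and 0.502 per kilobase of exon. These medians are the values of Chrm5 and Chrm4, which gave whole reads at no annotated length, only near one. Chrm3, a Gq-coupled receptor, had 0.710, 1.16 and 0.780 RPKM. Chrm1, the Gq-coupled receptor most abundant in adult forebrain, had 0.487, 0.634 and 0.495 RPKM. In both the 64.8 M library was the high one. Chrm3 was 1.64 times Chrm1 by RPKM (1.46 to 1.85) and 0.538 times per kilobase of exon. The length that gave whole reads for Chrm3 was 1948 bases, near that of a transcript, while its gene spans 485362 bases in M21. The exon bases used for Chrm3, 1949, nearly equal that length. Its value per kilobase of exon is therefore uncertain, and so is the direction of the pair on that scale. Chrm5, the last Gq-coupled type, had 0.312, 0.195 and 0.324 RPKM.

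Of the Gi-coupled muscarinic types, Chrm4 had 0.0932, 0.119 and 0.0714 RPKM. Chrm2, the receptor of the heart and of cholinergic terminals, had 0.0149, 0.0229 and 0.0162 RPKM. By RPKM both lay below the Gq-coupled types, but per kilobase of exon Chrm4 (0.502) and Chrm2 (0.418) lay above Chrm5 (0.302). Chrm4 was 5.25 times Chrm2 by RPKM (4.31 to 6.36) and 1.20 times per kilobase of exon (0.987 to 1.46), an interval that takes in 1. For Chrm4 the length used was 7640 bases and the M21 exons hold 1440, so its value per kilobase of exon is uncertain.

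The adrenergic receptor genes differed widely in level, also within 1 type. Adra2c, a Gi-coupled receptor that dampens release, had 1.85, 2.14 and 1.63 RPKM, and Adra2a, of the same type, had 0.647, 1.14 and 0.605 RPKM. Adra2c was 2.35 times Adra2a (2.12 to 2.60), and above it in all 3 libraries, by 2.86, 1.88 and 2.69 times. The exon scale gives the same ratio but is no separate check. For both genes the length was found only near an annotated one, and the exon bases used nearly equal it. Adra2b had 1, 2 and 1 reads. Adrb1, a Gs-coupled receptor, had 1.40, 1.37 and 1.38 RPKM, the closest agreement between libraries of any receptor gene with 30 or more reads. The length that gave whole reads for Adrb1 was 2490 bases, while its gene spans 10915 bases in M21, so that its 2 scales coincide through the length chosen, which is uncertain. Adrb3, known from fat cells, had 0, 3 and 1 reads.

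The Gq-coupled adrenergic genes Adra1a, Adra1b and Adra1d averaged 0.00376, 0.00425 and 0.00440 RPKM. Adra1a was 0.884 times Adra1b by RPKM (0.663 to 1.18), an interval that takes in 1, and 0.368 times per kilobase of exon. Adra1d rested on 14 reads.

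Of the histamine receptors, Hrh3, the Gi-coupled receptor on neurons, had 0.709, 0.826 and 0.648 RPKM. Hrh2 (Gs) averaged 0.0152 RPKM from 86 reads. Hrh1 (Gq) had 0.00295, 0.00832 and 0.00297 RPKM, with the 64.8 M library 2.82 times the lowest. Hrh3 was 153 times Hrh1 by RPKM (121 to 197), 12.8 times per kilobase of exon, and 229 times by RPKM without the 64.8 M library. Hrh4, known from blood cells, was listed at 0, where 3 reads would have been 0.00101 RPKM.

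Grouped by how they signal, 16 genes couple to Gi, 9 to Gs and 10 to Gq, and 18 are channel subunits. Per kilobase of exon the median was 0.321 for Gi, 0.165 for Gs, 0.176 for Gq and 0.0496 for channel subunits. By RPKM the medians were 0.0335 for Gi, 0.0157 for Gs, 0.00868 for Gq and 0.0155 for channel subunits, so the lowest group was Gq on that scale and the channel subunits on the exon scale. The highest single gene, Chrnb2, is a channel subunit. They held 125 of the 183 RPM of all receptor genes.

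The receptor genes stood below the genes of the fast transmitters. Per kilobase of exon the median was 0.159 for the 53 receptor genes, against 1.65 for 47 glutamate, GABA and glycine receptor genes, and 9 of 53 reached 1, against 28 of 47. By RPKM 4 of 53 receptor genes reached 1, against 4 of 47, and the medians were 0.0163 and 0.110 RPKM. The glutamate and GABA genes are long (median span 138 kb, against 17.1 kb), so that the deposited scale sets them lower. The highest of each list were Gria2 (7.65 RPKM), Grik5 (2.62) and Grin1 (0.865) for glutamate channels, Grm2 (1.70), Grm5 (0.127) and Grm3 (0.0599) for metabotropic glutamate receptors, and Gabbr1 (9.40) for GABA. The lowest above 0 were Grin2a (0.00302), Grm8 (0.00207) and Glra1 (0.000278 RPKM). Chrnb2 would stand between Gabbr1 and Gria2 in that company on the deposited scale.

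**Figure D4:**
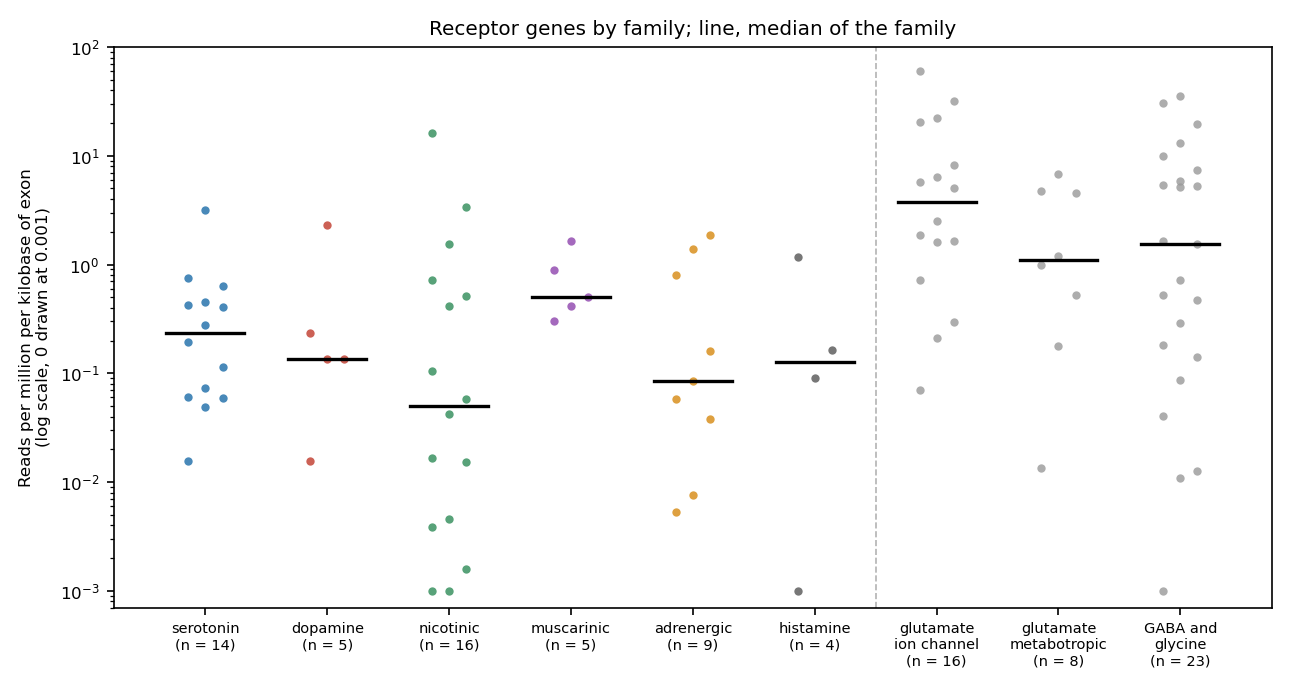
Level per kilobase of exon (log scale) of each gene of the 6 receptor families (left of the dashed line) and of 3 lists of glutamate, GABA and glycine receptor genes (right), with the median as a line. Reads were recovered for 28 of the 47 genes on the right, and for the others the M21 gene length was used. The family medians run from 0.0496 (nicotinic) to 0.502 (muscarinic), and those on the right from 1.10 to 3.78.

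The genes that make the ligands were near 0, while some of those that carry or break them down were not. None of the 9 synthesis genes reached 0.1 RPKM, against 11300 of all 20214 protein-coding genes. Pnmt, which makes adrenaline, led with 0.0788 RPKM from 19, 3 and 5 reads, followed by Gch1 (0.0197) and Tph1 (0.00738). Per kilobase of exon Pnmt (0.118) and Gch1 (0.112) lay close together above 0.1, and Tph2 stood near 0.1. Gch1 had 130 reads and Pnmt 27, so the size of the lead of Pnmt depends on the length used. Chat, which makes acetylcholine, was the lowest at 0.000403 RPKM with 0, 2 and 2 reads. Th, for dopamine and noradrenaline, had 16, 6 and 2 reads, and Tph2, the neuronal serotonin enzyme, had 16, 20 and 17. Th and Tph2 are known from the cell bodies whose axons reach the cortex, but which cells gave these reads was not tested. The 8 markers of such cells summed to 1.29, 1.20 and 1.33 RPM in the 3 libraries. Of the transporters, Slc29a4, a low-affinity monoamine carrier, stood at 4.46 RPKM, Slc18a2, which fills vesicles, at 0.140, Slc5a7, the choline carrier, at 0.0166 and Slc6a2, the lowest, at 0.000583. Of 9 transporter genes 8 could be matched. Of the breakdown genes, the acetylcholinesterase gene Ache stood at 0.896 RPKM, Maoa at 0.387, Hnmt at 0.0347, Bche at 0.0108 and Maob at 0.00612. The monoamine oxidase gene Maoa, which prefers serotonin and noradrenaline, was thus far above Maob.

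Genes of proteins that fold, modulate or relay the receptors were counted by list. Of 10 chaperones and modulators of nicotinic receptors, 3 reached 1 RPKM: Tmem35a, the chaperone of the Chrna7 channel, at 9.54, Ly6h at 8.80 and Ly6e at 5.80, with the muscle gene Musk the lowest. Of 10 G protein alpha genes 5 reached 1 RPKM, led by Gnai2 (7.10), Gna11 (5.22) and Gnai3 (3.27), with Gna14 the lowest (0.00386). Of 7 receptor kinase and arrestin genes, 4 did, led by Arrb2 (5.09), Grk6 (4.96) and Grk2 (4.96), with Grk4 at 0.0202. Of the 8 adenylyl cyclase genes 2 did, Adcy6 (5.01) and Adcy1 (2.14), with Adcy5 at 0.414 and Adcy8 at 0.0248. None of the 4 phospholipase C beta genes did: Plcb3 stood at 0.985, Plcb1 at 0.0911, Plcb4 at 0.0501 and Plcb2 at 0.0466 RPKM. Per kilobase of exon, 6 of 10 chaperones and modulators and 9 of 10 G protein alpha genes reached 1. So did 6 of 7 kinase and arrestin genes, 6 of 8 adenylyl cyclase genes and 3 of 4 phospholipase C beta genes. Of all protein-coding genes, 31.6% reached 1 RPKM and 54.1% reached 1 per kilobase of exon.

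The cortex label was checked against cell type markers. All 7 markers of new neurons (median 24.4 RPKM) and all 7 of radial glia (median 3.52 RPKM) reached 1 RPKM. So did 5 of 7 interneuron markers, 2 of 5 pericyte markers, 1 of 5 endothelial and 1 of 7 microglial markers, with none of 5 meningeal markers. Per kilobase of exon, 7 of 7 interneuron, 4 of 5 pericyte, 5 of 5 endothelial and 5 of 7 microglial markers reached 1. None of the 5 meningeal markers did. Of all protein-coding genes, 31.6% reached 1 RPKM and 54.1% reached 1 per kilobase of exon.

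The 3 libraries did not vary alike over the receptor genes. Of the 36 genes with 30 or more reads, 21 (58.3%) had a highest library at least 1.5 times the lowest, against 23.1% of the 3740 protein-coding genes with as many recovered reads. The median ratio was 1.59, against 1.25, with a median of 326 reads a gene, against 379.5. The 64.8 M library was the highest for 20 of 36 (55.6%), against 40.6% of those 3740. Reads were recovered for 33.9% of the 17140 protein-coding genes above 0, but for all 50 receptor genes above 0, which were searched more widely. The 2 sets were thus not picked alike. Htr2c had the widest spread, a factor of 3.73, with 0.824, 3.07 and 1.48 RPM. Leaving out the 64.8 M library brought Htr2c to 0.00491, Htr7 to 0.00600 and Hrh1 to 0.00296 RPKM. The summed level of the receptor genes without Chrnb2 was 90.3, 105 and 87.2 RPM.

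Markers of a neighbouring tissue differed between the libraries too. The choroid plexus markers Ttr, Aqp1, Kcne2, Otx2, Folr1, Clic6 and Kl, a list chosen after these values were seen, summed to 1.82, 2.35 and 1.48 RPM, with none at 0 and none at 1 RPKM. Ttr had 0.363, 0.895 and 0.565 RPM, the same order of libraries as Htr2c. Folr1, Clic6 and Kl had that order too, from 11, 30 and 8 reads in all. Aqp1 (0.587, 0.710 and 0.487 RPM) and Kcne2 (0.182, 0.247 and 0.0585) did not, and neither did the sum. In the other direction, Isl1, with 28, 7 and 1 reads, and Otx2, with 35, 10 and 6, were high in the 71.6 M library. Reads of Ttr, Kl, Otx2 and Isl1 were found only near an annotated length, so they are less certain. The part of other tissue in these differences was not tested.

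**Figure D5:**
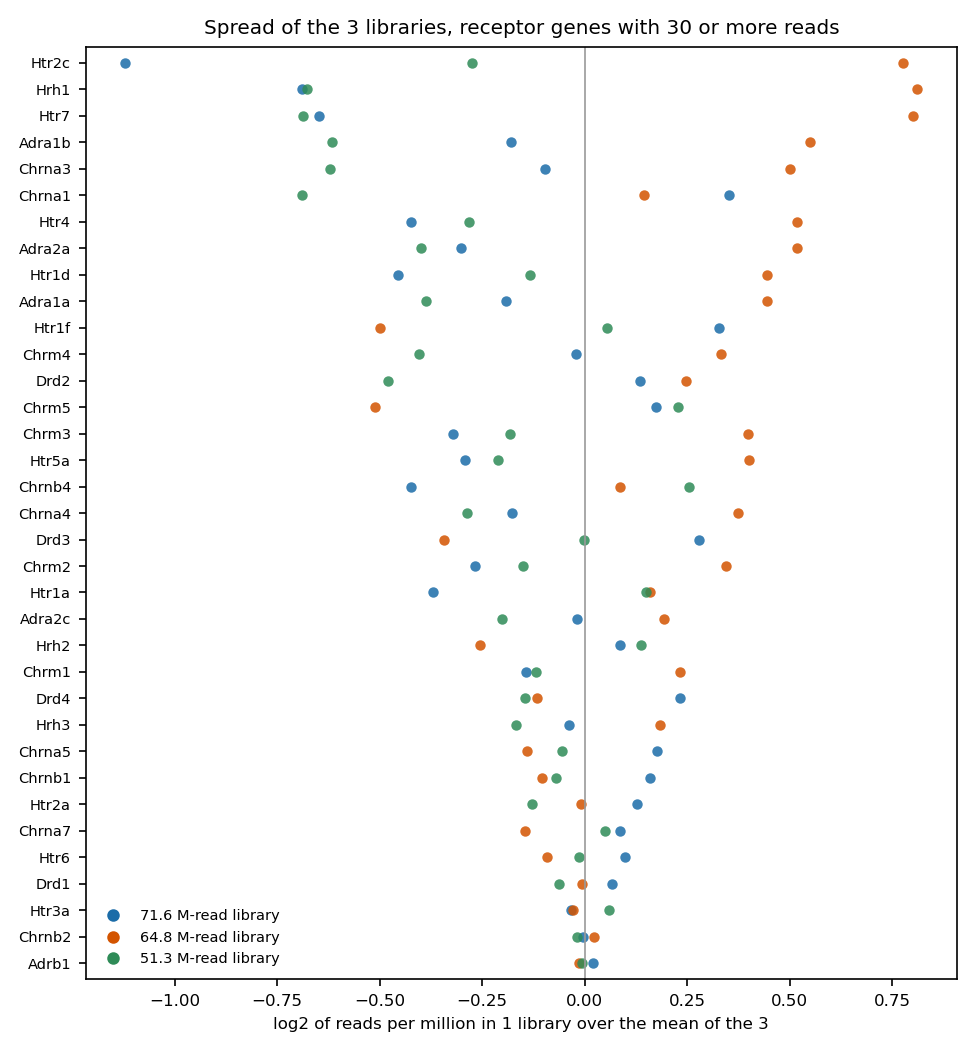
RPM of each library over the mean of the 3 (log2 scale) for 35 of the 36 receptor genes with 30 or more reads, widest spread at the top. The 64.8 M library (orange) is far right for Htr2c, Hrh1 and Htr7, and the points of Chrnb2 and Adrb1 coincide nearly.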

How the data were processed

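RNA of 3 embryonic cortex libraries was measured by sequencing. The deposited values are RPKM that the authors gave as 1 mean per gene ID, and no per-library column was used. HTSeq 0.6.0, DESeq 1.16.0, Cuffdiff 2.0.2, TopHat2 2.0.9, Bowtie2 2.1.0 and the builds NCBIM37 and mm9 stand there without roles, per the submitters' processing notes. Strand, read length and the gene models are not given in the sources used here. Of 37991 gene IDs, those with a GENCODE M21 gene were given its symbol, and no genome coordinates of the deposited genes are printed.

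Library totals came from genes with 1 read in 1 library (485, 415 and 329 genes), where the mean is fixed by length and total. Reads were then searched at annotated lengths (end minus start) up to 2000 reads, or 20000 for named genes, with a relative tolerance of 6e-15. Where that failed, receptor genes and genes of the lists were also searched within 20% of an annotated length. A multiple of such a length, with reads multiplied alike, gives the same mean. The 17 searches near a length for receptor genes together allow 0.0129 chance matches, a figure that leaves out the genes of the lists. At lengths 1 base longer 0.730% of genes matched. At known lengths the search recovered the reads of 995 of 995 simulated means. Python 3.11.15 with numpy 2.4.6, numba 0.67.0, scipy 1.17.1 and pandas 2.3.3 was used.

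Named genes were every receptor gene, with values for the 3 highest of each family, for pair members and for genes at 0, and, from lists of other genes, the lowest above 0 and the 3 highest, or all where 6 or fewer. Some genes of the families and lists, 1 receptor gene among them, are counted but not reported here. A few further genes were named after their values were seen. The receptor genes and lists were chosen with earlier results of these data known. Alternatives were the length scale, thresholds, rescaling, pseudocounts and leaving out each library.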

Additional observations from a re-analysis of the deposited data

How the results depend on the processing

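The count of receptor genes at 1 RPKM was 4 as deposited. It was 9 per kilobase of exon, 20 with the column rescaled to the sum that TPM has (with or without mitochondrial genes), 10 at a threshold of 0.5 RPKM and 18 at 0.1 RPKM. Of all 20214 protein-coding genes, 11300 reached 0.1 RPKM, against 18 of 53 receptor genes. For 0.5 RPKM and the rescaled column no count over all genes is given here, so those counts have nothing to be read against. Genes at or under 3 reads numbered 6, against 3 listed at 0. The median was 0.159 per kilobase of exon, against 0.0163 RPKM as deposited. Of 17 gene pairs, 5 turned round per kilobase of exon: Htr1b over Htr1d (0.431), Drd2 over Drd4 (1.76), Chrna4 over Chrna7 (0.448), Chrna5 over Chrna3 (1.25) and Chrm3 over Chrm1 (0.538). As reads with no length, Htr1b over Htr1d was 0.162, Drd2 over Drd4 1.34, Chrna4 over Chrna7 0.504, Chrm3 over Chrm1 0.162 and Chrm4 over Chrm2 0.291. These follow from the lengths used, of which that of Chrm3 is uncertain. Pseudocounts of 0.1 and 1 RPKM add the same amount to both genes. They cannot turn a pair round, so they say nothing about its direction.

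Leaving out each library in turn, an alternative chosen after seeing the data, kept 4 genes at 1 RPKM, put 3 to 4 genes at 0, gave medians of 0.0143 to 0.0196 RPKM and left 12 pairs with the first gene above the second. Genes under 30 reads carry wide counting intervals, such as 0.0277 to 0.552 for Chrng over Chrne. No paired analysis was possible because 1 group was used and the result comes from no test.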
